A study of Rattus norvegicus with 61 samples.

Results

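The cerebellum of male adolescent Sprague-Dawley rats was compared between animals that carried polymer implants loaded with 4-OH-PCB52 and animals that carried the same kind of implant without it. Rats received a subcutaneous implant on postnatal day 28 and kept it for 28 days. The high group had implants with 10% of 4-OH-PCB52 and the sham group had implants with 0%. RNA came from tissue punches, so each library mixes all cell types of the punched tissue, and 1 library stands for 1 animal. The comparison holds 11 of the 61 libraries of the series and of its 31 cerebellar libraries, namely 5 high libraries (animals 13, 14, 27, 44 and 58) and 6 sham libraries (animals 1, 3, 17, 18, 32 and 34). The other 4 high and sham cerebellar libraries (high 28, 43 and 59, and sham 48) were left out because their transcripts of ribosomal proteins were raised. The 1% (low) and 5% (medium) implants of the same study enter only as values beside the comparison, and the labels tie no library to 1 of the 4 cohorts in which the rats were ordered.

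4-OH-PCB52 is a hydroxylated form of the polychlorinated biphenyl PCB52, a semi-volatile pollutant that the liver oxidises. Hydroxylated PCBs are known to bind transthyretin, the thyroxine carrier that the choroid plexus secretes into cerebrospinal fluid, and some PCBs act on ryanodine receptors, the calcium release channels of the endoplasmic reticulum. The cerebellar cortex is built from very many small granule cells, a single row of large Purkinje cells that carry its output, inhibitory interneurons, unipolar brush cells and Bergmann glia, and in an adolescent rat its circuits and myelin are still maturing.

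The 11 libraries carried the markers of cerebellar cortex. Gabra6, the granule cell subunit of the GABA-A receptor, ranged from 764 to 974 CPM (counts scaled to the depth of the library), and Pcp2, a Purkinje cell gene, from 304 to 668 CPM. The striatal dopamine receptors Drd1 and Drd2 did not exceed 4.2 and 2.47 CPM, and Adora2a, an adenosine receptor rich in striatum, did not exceed 8.84. Ppp1r1b, a phosphatase inhibitor best known from striatum, was present at 192 to 394 CPM. Total counts ran from 5420458 to 9435159, with a median of 6948459.

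The libraries were chosen by the level of ribosomal protein transcripts, which is therefore given as a description with no test. The highest library kept was sham 1, with a mean of 8.45 log2 CPM, and the lowest left out was sham 48, with 10.26. Over the 5 high libraries the mean ran from 7.39 to 7.52 log2 CPM, and over the other 5 sham libraries from 7.43 to 7.79. Sham 1 thus stood between the libraries kept and those left out, and the label of comparable libraries holds for it only in part. Ribosomal protein genes took 2.99% of its reads, against 1.46% to 1.93% in the other 10, and its granule cell mean was 8.57 log2 CPM, against 8.88 to 8.96. It lay alone on the first principal component, which held 39.4% of the variance, at -58.7 against -7.8 to 15.6. Sham 17 and sham 18 came next in ribosomal protein level, at 7.79 and 7.69 log2 CPM, and stood apart on the second component (14.4% of the variance) at -24.1 and -25.2. Results below are therefore given with and without sham 1 where it moves them, and the values of sham 17 and 18 are given where they matter.

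**Figure D1:**
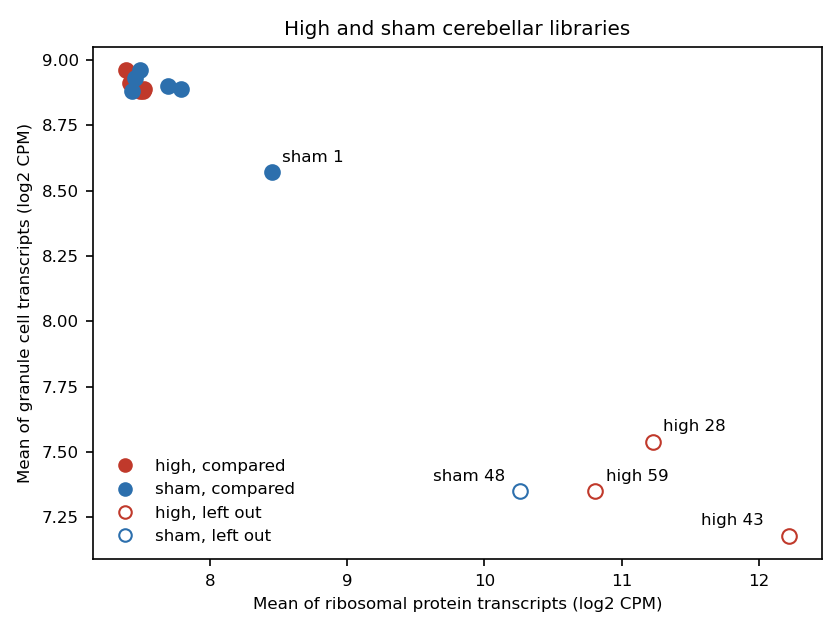
Mean level of granule cell transcripts (log2 CPM, vertical axis) against mean level of ribosomal protein transcripts (log2 CPM, horizontal axis) in the high (red) and sham (blue) cerebellar libraries, 1 point per library. Filled points are the 11 libraries compared and open points the 4 left out. Sham 1, at 8.45 and 8.57, lies between the other 10 and the 4 left out.

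No gene of the 11570 tested differed between high and sham at an adjusted p under 0.05, which is 0% of the genes (edgeR quasi-likelihood test, two-sided, Benjamini-Hochberg adjustment). The smallest adjusted p was 0.741, shared by 3314 genes. At an unadjusted p under 0.05 stood 329 genes that were higher in high animals (2.84%) and 339 that were lower (2.93%). These counts depended on single libraries: they were 602 and 557 without sham 32, 515 and 480 without sham 3, 181 and 221 without sham 17, 193 and 238 without sham 18, 221 and 220 without high 14, and 232 and 200 without high 58. Without sham 1 they were 409 and 327, and the smallest adjusted p of the edgeR test was 0.273. Log2 fold changes (high minus sham) were above 0 for 50.5% of the genes and below 0 for 49.5%, with a median of 0.00. Every high library lay above every sham library in 28 genes (0.242%) and below every sham library in 31 (0.268%). The median absolute log2 fold change was 0.12 and 95% were under 0.40, while the median standard error of a log2 fold change was 0.13. DESeq2, with a smallest adjusted p of 0.0996 (Pnrc1), and limma-voom, with 0.161, also called 0 genes, and none was called when any 1 of the 11 libraries was left out.

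**Figure D2:**
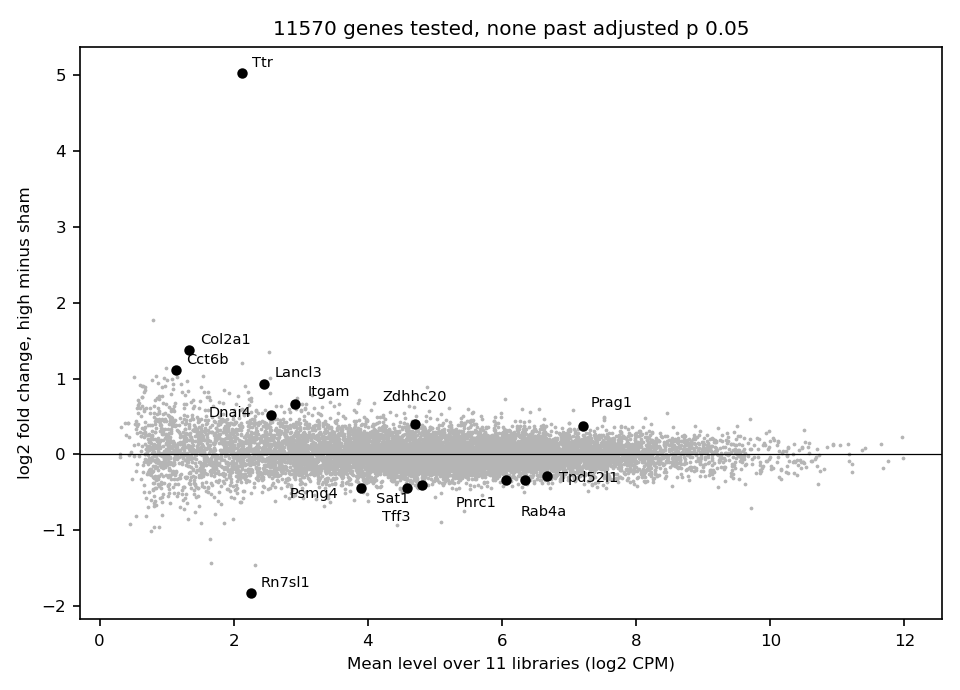
Log2 fold change of high minus sham (vertical axis) against mean level over the 11 libraries (log2 CPM, horizontal axis) for the 11570 genes tested. Black points are the named genes, 8 higher and 7 lower, taken from those with the smallest p, none of which passed the threshold.

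From the genes with the smallest p in each direction, 8 higher and 7 lower ones are described here with their CPM, and each had an adjusted p of 0.741. Itgam, the integrin chain that marks microglia and other myeloid cells, had 10.2, 10.5, 8.98, 7.89 and 9.67 CPM in high 13, 14, 27, 44 and 58. In sham 1, 3, 17, 18, 32 and 34 it had 5.93, 7.42, 5.95, 5.3, 6.22 and 4.8 CPM. The groups did not overlap, and the lowest high library lay close to the highest sham library. Means were 9.44 ± 1.03 (SD, n = 5) and 5.94 ± 0.891 (SD, n = 6) CPM, a log2 fold change of 0.66 ± 0.15 (SE) with a 95% interval of 0.35 to 0.97, and it was 0.66 without sham 1 too. In the libraries left out Itgam was at 0.967 to 1.35 CPM in high and 1.94 in sham animals, and with them the log2 fold change was 0.22. The other microglial genes were split: 10 of the 18 tested markers, Itgam among them, were higher and 8 lower, and Ctss, a lysosomal protease, had a log2 fold change of -0.04 ± 0.14. Without sham 1, 16 of 18 were higher with a median of 0.19, and Ctss had 0.13 ± 0.08. Trem2, a microglial receptor, had 0.47 ± 0.29, and 0.65 ± 0.28 without sham 1. In bulk tissue, a change in the number of cells of a type and a change in RNA per cell cannot be told apart.

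Prag1, a pseudokinase that acts as a signalling scaffold, had 164, 159, 165, 180 and 182 CPM in the high libraries and 135, 136, 107, 129, 153 and 128 CPM in the sham libraries, in the same order of animals. Its groups did not overlap, and its log2 fold change was 0.37 ± 0.09 (SE). In the libraries left out Prag1 stood at 22.7 to 36.4 CPM, below all libraries compared. Zdhhc20, an enzyme that attaches palmitate to proteins, had 27.6 to 33 CPM in high and 18.3 to 25.2 in sham animals. Its log2 fold change was 0.40 ± 0.10, or 0.34 without sham 1, whose value was the lowest. The libraries left out had 4.51 to 9.54 CPM of Zdhhc20, also below all libraries compared. Dnai4, a dynein intermediate chain of motile cilia, had 6.06 to 7.65 CPM against 4.39 to 4.96, again with no overlap, and a log2 fold change of 0.53 ± 0.14. Beside it, the 4 tested members of the ependymal list, genes of ciliated ventricle-lining cells, had a median log2 fold change of 0.20 (0.06 over 3 without sham 1), and Foxj1, the master factor of motile cilia, had 0.31 ± 0.36.

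The other genes with the smallest p among those higher overlapped between groups. Lancl3, a LanC-like protein, had 8.05, 7.43, 8.71, 7.25 and 6.21 CPM in high 13, 14, 27, 44 and 58 and 3.02, 4.03, 2.9, 2.74, 6.38 and 4.63 CPM in the sham libraries. Only sham 32 lay within the high range, just above high 58, and the log2 fold change was 0.93 ± 0.22 (SE). Lancl3 too was below all libraries compared in those left out, at 0.276 to 1.38 CPM. Cct6b, a subunit of the cytosolic chaperonin best known from testis, was at 2.14 to 3.73 CPM against 0.539 to 2.38, a log2 fold change of 1.11 ± 0.30. Col2a1, a fibrillar collagen chain, was at 1.08 to 6.37 CPM against 0.956 to 1.73: high 13, 14, 27 and 58 stood above all sham libraries and high 44 did not.

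Ttr, which encodes transthyretin, had the largest log2 fold change among the named genes, 5.03 ± 1.23 (SE), and it rested on few libraries. Its level was 268 CPM in high 13, 17.6 in high 14, 13.3 in high 27, 1.08 in high 44 and 3.32 in high 58. The sham libraries had 0.863, 1.04, 2.9, 2.19, 0.319 and 4.3 CPM. High 13, 14 and 27 lay above every sham library, while high 44 and 58 lay within the sham range. Without high 13 the log2 fold change was 2.20 ± 0.69. Among the libraries left out, Ttr was at 9840 CPM in high 59 and at 503 in high 28, and also at 57.5 in sham 48.

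The choroid plexus, which makes Ttr, lies against the cerebellum, and 4 of its 7 other tested markers (Kl, Slc4a5, Clic6 and Aqp1) were higher in high 13 than in every sham library. With Ttr, 8 of the 13 listed markers were tested, and all 8 had a positive log2 fold change, with a median of 0.61, or 7 of 8 with a median of 0.15 without high 13. The mean of the 7 other markers was 3.39 log2 CPM in high 13, 2.39 in high 14, 2.52 in high 27, 2.14 in high 44 and 2.45 in high 58, against 1.86 to 2.52 in sham libraries. Without Ttr, only high 13 thus lay above the sham range. Kl, which encodes klotho, was at 9.43 CPM in high 13 and at 2.58 to 3.04 in the other high libraries, against 1.16 to 3.23 in sham libraries. Its log2 fold change was 0.82 ± 0.37 (SE), and 0.26 ± 0.26 without high 13. Slc4a5, a bicarbonate transporter of choroid epithelium, was at 7.67 CPM in high 13, while Kcne2, a potassium channel subunit of that epithelium, was at 8.18 CPM there and at 8.85 in sham 17. Kcnj13, another potassium channel of the epithelium, was at 4.4 CPM in high 13 and at 4.46 in sham 32. Otx2, a homeobox factor on the same list, did not follow Ttr: it was at 92.3 and 90.4 CPM in high 14 and 27, at 44.3 in high 13 and at 55.2 in sham 32. It ranged from 8.44 to 92.3 CPM, while Clic6, the next highest of the 7 by mean, ranged from 9.67 to 20 CPM. Otx2 is part of the counts and the mean above, and whether it came from choroid plexus in these punches was not tested. The part that choroid plexus tissue in the punch had in the Ttr values was not tested.

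Among the genes that stood lower, Pnrc1, a proline-rich coactivator of nuclear receptors, had the smallest p. Its level was 59.1, 53.2, 57.2, 60.5 and 61.5 CPM in high 13, 14, 27, 44 and 58, and 77, 72.8, 66.1, 72.2, 77.1 and 78.3 CPM in sham 1, 3, 17, 18, 32 and 34. The groups did not overlap. The means were 58.3 ± 3.26 (SD, n = 5) and 73.9 ± 4.57 (SD, n = 6) CPM, and the log2 fold change was -0.34 ± 0.07 (SE), with a 95% interval of -0.50 to -0.18. It was -0.33 without sham 1. In the 4 libraries left out, Pnrc1 stood at 87.7 to 107 CPM, above all 11, and with them the log2 fold change was -0.13.

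Sat1, the acetyltransferase that starts the breakdown of polyamines, had 22.9, 23.3, 27.5, 22.5 and 23.5 CPM in the high libraries and 36.2, 29.7, 28.7, 37.3, 28.1 and 29.3 CPM in the sham libraries. High 27 came closest to the sham values, and the groups did not overlap (log2 fold change -0.40 ± 0.11, SE). Psmg4, a chaperone of proteasome assembly, was at 10.2 to 13.8 CPM against 14.7 to 19.5, with a log2 fold change of -0.44 ± 0.12. Rab4a, a small GTPase of recycling endosomes, was at 66.8 to 75.5 CPM against 75.6 to 108, with a log2 fold change of -0.34 ± 0.10. The groups did not overlap for these genes either, although for Rab4a high 27 and sham 3 nearly met.

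Sat1, Psmg4 and Rab4a were among the transcripts that stood far higher in the libraries left out. Psmg4 was at 141, 320 and 123 CPM in high 28, 43 and 59, and at 82.4 in sham 48. Sat1 had 81.3 to 153 CPM and Rab4a 201 to 396 CPM in the same 4 libraries. Within the 11, sham 1 had the highest Rab4a value but not the highest Sat1 or Psmg4 value, which belonged to sham 18 and sham 17. Without sham 1 the log2 fold changes were -0.35, -0.40 and -0.28 for Sat1, Psmg4 and Rab4a. The part of whatever raised these transcripts in the left-out libraries was not tested for the 11.

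Tff3, a trefoil peptide, and Tpd52l1, a D52-family protein, overlapped between groups. Tff3 was at 17 to 25 CPM in high and 23 to 31.3 in sham animals, Tpd52l1 at 88 to 100 against 96.9 to 121. Their log2 fold changes were -0.44 ± 0.12 and -0.29 ± 0.08 (SE). In the libraries left out Tff3 stood at 98 to 404 CPM and Tpd52l1 at 166 to 267, above all libraries compared.

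Rn7sl1, the RNA of the signal recognition particle, had the largest negative log2 fold change of the named genes, -1.83 ± 0.45 (SE). Its level was 5.03, 3.03, 1.52, 1.3 and 1.88 CPM in the high libraries and 17, 12.1, 3.82, 10.1, 3.83 and 6.79 CPM in the sham libraries. Only high 13 lay within the sham range. This RNA has many near-identical copies in mammalian genomes and no long poly(A) tail, so its counts are uncertain, and in the 4 libraries left out it stood at 52.1 to 254 CPM.

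**Figure D3:**
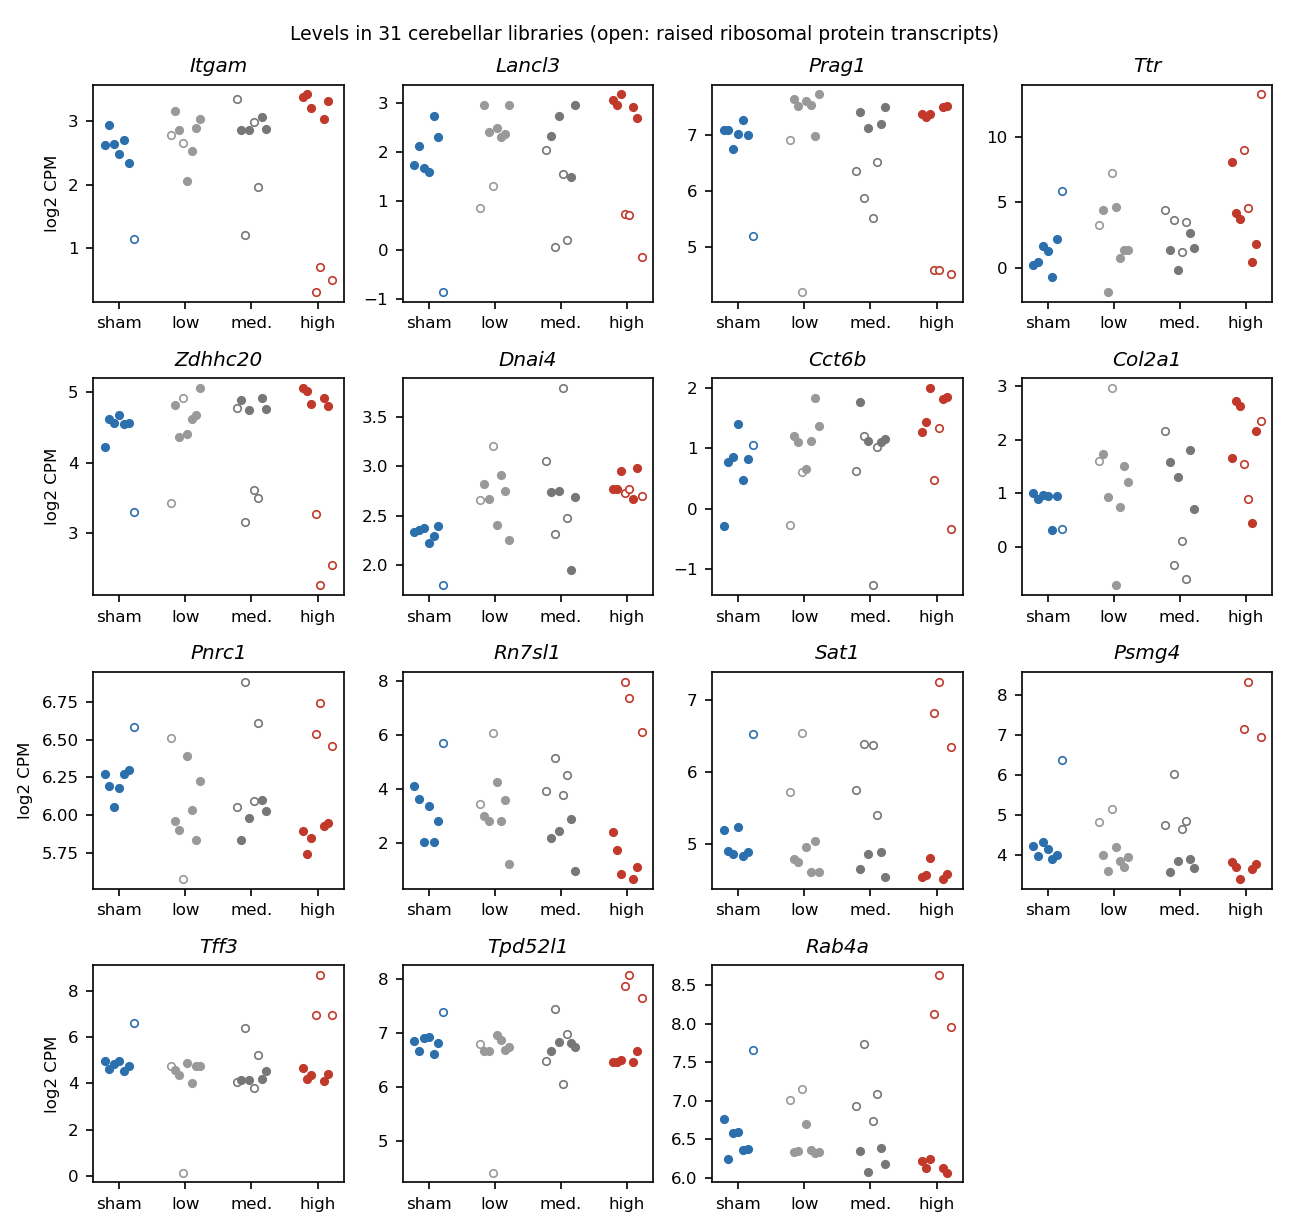
Level (log2 CPM, vertical axis, a scale of its own in each panel) of the 15 named genes in all 31 cerebellar libraries by implant loading, 1 point per library; med. stands for medium. Filled points are libraries with a ribosomal protein mean no higher than that of sham 1, open points those above it. The open points depart from the filled ones by more than high departs from sham in most panels, as for Psmg4, at 82.4 to 320 CPM in the 4 left-out high and sham libraries.

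Beside these values stand those of the low and medium implants, without a test and only for libraries with a ribosomal protein mean no higher than that of sham 1 (6 low, 4 medium). For Itgam the medians ran from 5.94 CPM in sham over 7.07 in low and 7.05 in medium to 9.67 in high. For Pnrc1 they were 74.9 CPM in sham, 63.6 in low, 64 in medium and 59.1 in high. The low and medium medians of these genes thus lay between sham and high, but the low libraries alone spanned 3.88 to 8.65 CPM for Itgam and 56.7 to 83.8 CPM for Pnrc1. Both genes were named for a small p between high and sham. That choice favours such an order, which is therefore no separate support. For Prag1 the low median, 189 CPM, lay above the high median of 165. For Dnai4 the low and medium medians, 6.24 and 6.28 CPM, lay near the high median of 6.54, with a range over the medium libraries of 3.56 to 6.45. For Ttr the low median was 2.29 CPM and the medium median 2.41, against 1.62 in sham and 13.3 in high.

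The numbers of the animals run through the series, and the libraries were also set side by side within runs of 15 numbers, which the labels do not call cohorts. In each of the 3 runs that held both groups, 13 of the 15 named genes had the sign they had overall. The exceptions were Ttr and Col2a1, which in the run with high 44, sham 32 and sham 34 had differences of -0.28 and -0.18 in log2 CPM. For Ttr the other runs gave 5.81 and 2.27. Pnrc1 had differences of -0.41, -0.27 and -0.36, and Itgam of 0.62, 0.65 and 0.51. The genes were named for their small p in these same libraries. A shared sign was therefore largely fixed beforehand and is no separate support for any of them.

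Cell types and pathways were followed through 32 gene lists with 811 symbols, of which 717 passed the filter on low counts and were tested. Markers of the neurons of the cerebellar cortex differed little between groups. Of 17 granule cell genes tested, 11 were higher and 6 lower, with a median log2 fold change of 0.05 against 0.00 over all genes. Without sham 1, 7 were higher and 10 lower, with a median of -0.01. Gabra6 had a log2 fold change of -0.04, with a 95% interval of -0.24 to 0.17, and Cbln1, a synapse organiser that granule cells release, -0.14, with an interval of -0.35 to 0.07. Calb2, the calcium buffer calretinin, stood lower: it had 633, 484, 552, 603 and 554 CPM in the high and 689, 766, 851, 724, 601 and 684 CPM in the sham libraries. High 13 and high 44 lay above sham 32, the lowest sham library, and the log2 fold change was -0.35 ± 0.10 (SE). Zic1, a zinc finger factor of granule cells, had 0.22 ± 0.10. Neither passed the adjustment (adjusted p = 0.741).

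Of 17 Purkinje cell genes, 11 were lower and 6 higher, and the median log2 fold change was -0.13, or -0.03 without sham 1. Pcp2 had 332, 316, 304, 345 and 305 CPM in the high libraries and 668, 366, 448, 408, 338 and 341 CPM in sham 1, 3, 17, 18, 32 and 34. Pvalb, the calcium buffer parvalbumin of Purkinje cells and interneurons, had 483 to 559 CPM in high animals against 531 to 1090, also with its highest value in sham 1. The log2 fold changes of -0.42 ± 0.16 and -0.43 ± 0.16 (SE) became -0.24 ± 0.08 and -0.25 ± 0.09 without sham 1. Sham 17 and 18 were again the next highest sham libraries for Pcp2. Itpr1, the main calcium release channel of Purkinje cells, did not go with them: its log2 fold change was 0.23 ± 0.14.

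Of the 13 genes of interneurons and unipolar brush cells, 9 were higher and the median log2 fold change was 0.12. Nrk, a kinase gene on this list, had 12.6, 19.9, 18.4, 20.9 and 22.1 CPM in high 13, 14, 27, 44 and 58 and 11.2 to 16.5 CPM in sham animals. High 13 lay within the sham range and the others above it, and the log2 fold change was 0.47 ± 0.15 (SE). Lmx1a, a factor of unipolar brush cells, had 0.649 to 5.61 CPM in high and 0.911 to 2.48 in sham animals. The list of forebrain and brainstem neurons, which a cerebellar punch could carry along, had 2 of 9 tested members higher. One of these was Slc17a6, the vesicular glutamate transporter of deep nuclear and brainstem neurons, with 8.55, 3.94, 3.73, 0.108 and 1.88 CPM in the high and 0.548 to 2.55 CPM in the sham libraries. High 13, 14 and 27 stood above all sham libraries and high 44 below them (log2 fold change 1.77 ± 0.65, SE, and 1.14 ± 0.63 without high 13).

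Glial lists moved with single libraries. Of 18 oligodendrocyte and myelin genes, 14 were higher in high animals, and the median log2 fold change was 0.07. Without sham 1 all 18 were higher with a median of 0.22, and without high 13 only 5 were higher, with a median of -0.08. The list mean was 7.50 log2 CPM in high 13 and 7.48 in sham 1. It was 6.84 to 7.04 in sham 3, 17 and 18 and in high 14 and 27, and 6.44 to 6.71 in sham 32, sham 34, high 44 and high 58. The libraries of the higher animal numbers were therefore the lower ones in both groups. Mbp, the myelin basic protein, ranged from 2340 to 5310 CPM in high and from 2090 to 6070 CPM in sham animals.

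Genes of oligodendrocyte precursors were higher in 7 of 13 (median 0.01), and in 13 of 13 without sham 1 (median 0.11). Microglial genes had a median log2 fold change of 0.04 in all 11 libraries, and the list mean of sham 1, 3.79 log2 CPM, was the highest. Of 19 Bergmann glia and astrocyte genes, 13 were higher, with a median of 0.10. Slc1a2, a glutamate transporter, was at 88.7 to 97.4 CPM in the 5 high libraries. It was at 42.8, 88.8, 21.5, 29.1, 84.2 and 70.8 CPM in sham 1, 3, 17, 18, 32 and 34, so its log2 fold change of 0.73 ± 0.29 (SE) rested on sham 1, 17 and 18, the sham libraries with the highest ribosomal protein means. Aqp4, the water channel of astrocyte endfeet, was also lowest in these 3 libraries. It was at 718 and 771 CPM in sham 17 and 18 and at 886 in sham 1, against 1020 to 1250 in all others.

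Lists of vessel and surface tissues had medians near that of all genes. Endothelial genes had a median log2 fold change of 0.06 (12 of 19 higher), with Cldn5, a tight junction protein, at -0.22 ± 0.15 (SE) and -0.04 without sham 1. Mural cell genes had a median of -0.04, with Rgs5, a pericyte gene, at 0.37 ± 0.16. Meningeal fibroblast genes had a median of -0.07, or -0.15 without sham 1, and their list mean spanned 3.13 log2 CPM in high 27 to 5.47 in high 58, more than the groups differed. Of the 10 blood genes 3 were tested. Hbb, a beta globin gene, ranged from 0.159 to 35.6 CPM in sham animals, with its highest value there, and from 1.3 to 6.64 in high animals.

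Genes of the respiratory chain, mitochondrial ribosomes and proteasome mostly stood lower in high animals, and much of this was sham 1. These lists also stood higher in the libraries left out for their ribosomal protein level, as given below. All 76 tested ribosomal protein genes had a negative log2 fold change, with a median of -0.30, or -0.10 without sham 1; since their level chose the libraries, nothing is read from this. Of 72 nuclear-encoded genes of the respiratory chain, 71 were lower, with a median of -0.28, where 49.5% of all genes were lower. At an unadjusted p under 0.05 stood 24 of them, all lower, against 2.93% of all genes, and none passed the adjustment. Without sham 1, 66 of 72 were lower with a median of -0.12, and 14 lower genes had an unadjusted p under 0.05.

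The list means show the same by library. The respiratory chain mean was 6.88, 6.93, 6.93, 6.92 and 6.83 log2 CPM in high 13, 14, 27, 44 and 58. It was 7.74, 6.93, 7.21, 7.14, 6.86 and 6.91 log2 CPM in sham 1, 3, 17, 18, 32 and 34. Sham 3, 32 and 34 thus lay within the high range, while sham 1, 17 and 18 lay above it, in the order of their ribosomal protein means. In the libraries left out, the respiratory chain mean was 9.05 to 10.68 log2 CPM. The part of whatever raised ribosomal protein transcripts in sham 1, 17 and 18 was not tested. Cox5b and Cox7c, subunits of cytochrome c oxidase, had log2 fold changes of -0.43 ± 0.14 and -0.48 ± 0.17 (SE), and of -0.29 and -0.31 without sham 1. Atp5f1a and Atp5f1b, subunits of the ATP synthase head, had -0.15 ± 0.12 and -0.17 ± 0.13, and -0.02 and -0.03 without it.

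Mitochondrial ribosomal protein genes followed the same order: 50 of 55 were lower with a median of -0.20, or 40 of 55 with -0.06 without sham 1. Proteasome subunits had 27 of 30 lower with a median of -0.15, or 25 of 30 with -0.05 without it. In the libraries left out the mitochondrial ribosomal mean was 6.58 to 7.94 log2 CPM, against 4.80 to 5.50 in those compared. The proteasome mean was 7.78 to 8.70 log2 CPM there, against 6.53 to 7.12. Psmb1, a subunit of the proteasome core, was at 93.7 to 103 CPM in high and 99.1 to 185 in sham animals. Mrps10, of the small mitochondrial ribosomal subunit, had -0.44 ± 0.16 (SE), and -0.34 without sham 1.

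**Figure D4:**
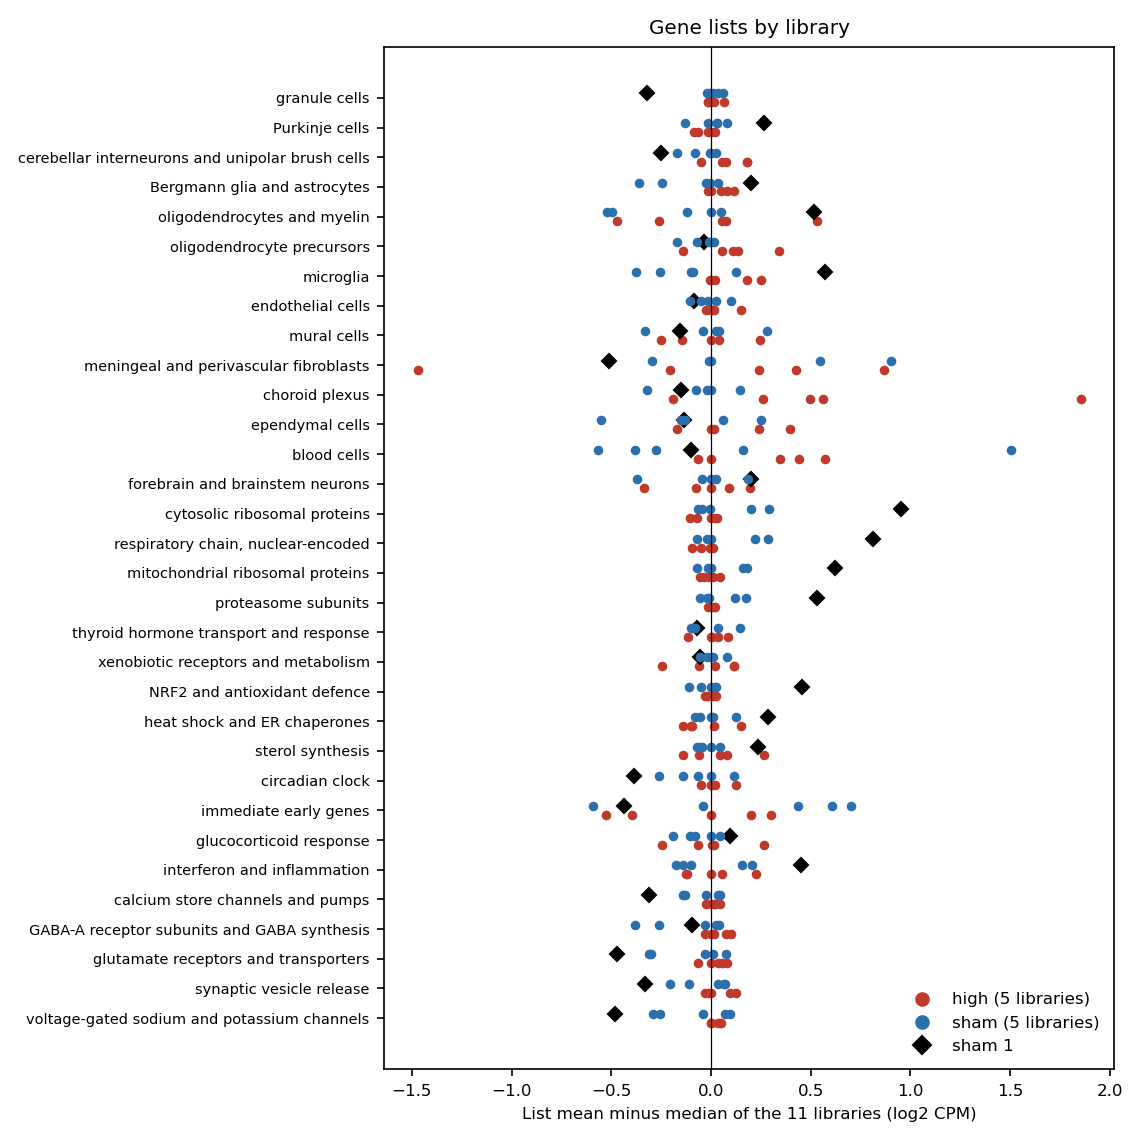
Mean level of each of the 32 gene lists in each of the 11 libraries, as the difference in log2 CPM from the median of the 11 (horizontal axis). Red points are high libraries, blue points sham libraries and the black diamond is sham 1. Sham 1 lies at the edge for the respiratory chain (7.74 log2 CPM against 6.83 to 7.21 in the others) and many other lists, high 13 for choroid plexus and high 27 for meningeal fibroblasts.

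Genes of neuronal signalling leaned the other way, and again with the sham libraries that stood apart. Of 39 sodium and potassium channel genes, not all of them voltage-gated, 31 were higher in high animals, where 50.5% of all genes were. Their median log2 fold change was 0.16. Without sham 1, 29 of 39 were higher with a median of 0.10. The list mean was 6.29 to 6.34 log2 CPM in the 5 high libraries, 5.81, 6.00 and 6.03 in sham 1, 17 and 18, and 6.36, 6.38 and 6.25 in sham 3, 32 and 34. Sham libraries therefore lay on both sides of the high range. In the libraries left out this mean was 4.18 to 4.39 log2 CPM. Kcnj10, the potassium channel of astrocytes, had a log2 fold change of 0.43 ± 0.17 (SE) and Kcnn2, a calcium-activated potassium channel, 0.27 ± 0.11.

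Glutamate receptor and transporter genes were higher in 23 of 30 (median 0.10, or 0.04 without sham 1), and vesicle release genes in 24 of 32 (median 0.11, or 0.04 without it). GABA-A receptor and GABA synthesis genes were higher in 14 of 18 with a median of 0.13, and of 0.14 without sham 1. The mean of this GABA-A receptor list was 6.54 to 6.67 log2 CPM in the high libraries. It was 6.48, 6.19 and 6.31 in sham 1, 17 and 18, and 6.60, 6.61 and 6.54 in sham 3, 32 and 34. Gabrb1, a beta subunit of this receptor, was at 8.18, 10.9, 8.43, 12.2 and 9.96 CPM in high and at 7.98, 8.72, 3.82, 5.85, 9.09 and 6.12 CPM in sham animals, which overlapped (log2 fold change 0.51 ± 0.21, SE). Syt1, the calcium sensor of vesicle fusion, had 0.29 ± 0.14 and Stx1a, a syntaxin of the release machinery, -0.32 ± 0.16.

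Calcium store genes, which include the ryanodine receptors, were higher in 16 of 23, and the median log2 fold change was 0.07. Orai3, a plasma membrane channel that refills calcium stores, had 33.7, 37.4, 35.4, 36.7 and 33.3 CPM in the high and 61.8, 43.7, 41.4, 46.1, 41 and 38.2 CPM in the sham libraries. The groups did not overlap, and sham 1 had the highest value (log2 fold change -0.36 ± 0.12, SE, adjusted p = 0.741). Homer1, a scaffold that links glutamate receptors to calcium stores and is also induced by neuronal activity, had 34.8, 47, 41.6, 49.6 and 46.2 CPM in the high and 25.6, 36.8, 29, 34, 37.6 and 38.4 CPM in the sham libraries. High 13 alone lay within the sham range (0.39 ± 0.13, SE).

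Genes of the pathways most often linked to PCBs had medians near 0. Of 22 thyroid hormone genes, 14 were higher with a median of 0.03. Thra, the main thyroid hormone receptor of brain, had a log2 fold change of 0.02 with a 95% interval of -0.15 to 0.19, Thrb 0.31 ± 0.14 (SE), and Klf9, a gene that the hormone induces, 0.19 ± 0.10. Ntf3, which encodes the neurotrophin NT-3 and is thyroid-responsive in cerebellum, had 3.9, 3.49, 3.73, 2.7 and 3.03 CPM in the high and 4.1, 3.12, 5.34, 5.12, 4.94 and 7.61 CPM in the sham libraries. Sham 3 lay within the high range and the other sham libraries above it, with a log2 fold change of -0.57 ± 0.23 (SE).

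Xenobiotic receptor and metabolism genes were split, 9 higher and 8 lower of 17, with a median of 0.03, and Gstm1, a glutathione transferase, had -0.28 ± 0.13 (SE), or -0.18 without sham 1, its highest library with 145 CPM. NRF2 target and antioxidant genes had 9 of 23 higher with a median of -0.07, or 13 of 23 with 0.03 without sham 1. Gclc, which starts glutathione synthesis, had 0.18 ± 0.08 and Mt2A, a metallothionein, -0.62 ± 0.28, or -0.34 without sham 1, where it was at 24.6 CPM against 5.28 to 14 elsewhere. Heat shock and chaperone genes were lower in 22 of 25 with a median of -0.06, or in 14 of 25 with -0.03 without sham 1.

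Of the remaining lists, sterol synthesis had a median of 0.03, glucocorticoid response 0.04 and interferon and inflammation -0.10 (8 of 24 higher). Without sham 1 these medians were 0.09, 0.09 and 0.03, the last with 15 of 23 higher. Psmb9, an interferon-induced proteasome subunit, had 1.24 to 2.12 CPM in high and 1.65 to 6.58 in sham animals, sham 1 being the highest (log2 fold change -0.85 ± 0.35, SE, and -0.42 ± 0.25 without it). Circadian clock genes had a median of 0.14 with 11 of 16 higher, but Bmal1, the partner of CLOCK, stood lower. It had 53.2, 48.8, 56.9, 53 and 52.1 CPM in the high and 57.9, 60.4, 70.7, 55.8, 66.2 and 70.7 CPM in the sham libraries. High 27 alone lay within the sham range (-0.27 ± 0.09, SE), and Nfil3, a repressor of the same network, had -0.43 ± 0.16. Immediate early genes were lower in 15 of 20 with a median of -0.22, and their list mean overlapped, at 3.66 to 4.49 log2 CPM in high and 3.59 to 4.89 in sham animals. No member of any list passed the adjusted threshold.

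Striatal libraries of the same 11 animals gave the comparison with another region. The difference between the regions in high minus sham had 0 of 12307 genes at an adjusted p under 0.05 (0%), and the smallest adjusted p was 1. At an unadjusted p under 0.05 stood 110 genes with a higher and 63 with a lower cerebellar difference. These counts were 88 and 154 without animal 17, 122 and 100 without animal 3, and 104 and 99 without animal 14, while limma-voom gave 226 and 138. The fit took the libraries of both regions as independent, although they came from the same animals. With the animal as a block the counts were 119 and 67. Pnrc1 had a log2 fold change of -0.28 ± 0.09 (SE) in striatum beside -0.34 ± 0.08 in cerebellum, and the difference was -0.06 ± 0.12. Its striatal levels were 38.6, 33.2, 37.9, 35 and 39.8 CPM in the high and 46.2, 40.3, 53.5, 48.5, 41.9 and 38.5 CPM in the sham libraries, which overlapped through sham 34. The highest of these were sham 17 and 18, and the other sham libraries had 38.5 to 46.2 CPM. Itgam had 0.37 ± 0.19 in striatum, with a difference of 0.29 ± 0.28. This striatal value rested on sham 17 and 18, at 13.1 and 16.4 CPM. The other striatal sham libraries had 28 to 34.9 CPM and overlapped the high libraries, at 29.2 to 41.4.

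For Rab4a and Sat1 the striatal values were near 0, at -0.01 ± 0.11 and -0.05 ± 0.13 (SE), and the differences between regions were -0.33 ± 0.16 and -0.35 ± 0.19. Lancl3 had the next smallest p among the genes with a higher cerebellar difference, after Ttr: its log2 fold change was 0.93 ± 0.24 in cerebellum and -0.37 ± 0.25 in striatum, a difference of 1.31 ± 0.35 (adjusted p = 1, edgeR). For Ttr the difference of 11.52 ± 2.80 rested on striatal sham 17, which had 12300 CPM where the other striatal libraries had 2.96 to 39.4, and it was 4.42 with the animal as a block. Gbx1, a homeobox factor, had a difference of 3.01 ± 0.86, and cerebellar levels under 1 CPM in all 11 libraries. Among the genes with a lower cerebellar difference stood Vtcn1, an immune checkpoint ligand, at -4.58 ± 1.39, which rested on 2.73 CPM in striatal high 13, with at most 0.14 CPM in every other striatal library. Rn7sl1 had -2.13 ± 0.66, and Fam210b, a mitochondrial membrane protein, had -0.59 ± 0.19. Tff3 had no count in any of the 11 striatal libraries.

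**Figure D5:**
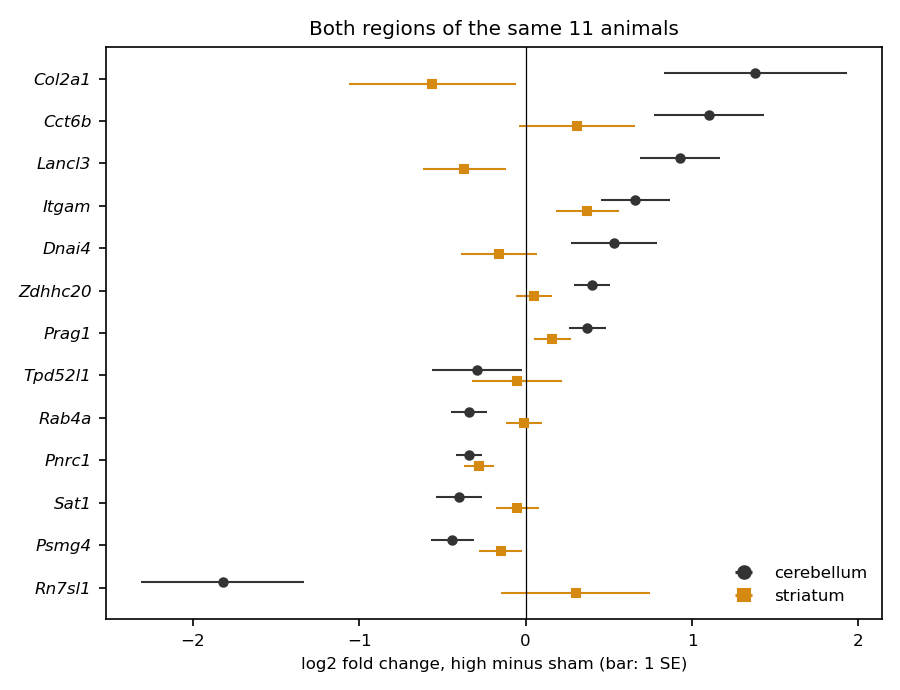
Log2 fold change of high minus sham with 1 standard error (horizontal axis) in cerebellum (black circles) and striatum (orange squares) of the same 11 animals, for 13 of the 15 named genes. Ttr, with 1 extreme striatal library, and Tff3, with no striatal counts, are left out. Pnrc1 lay at -0.34 and -0.28, and Rab4a at -0.34 and -0.01.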

How the data were processed

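The values are whole-number read counts per gene, deposited by the authors as 1 table per region. The submitters' processing notes name FastQC, HISAT2 and rn6; which versions, counting tool and strand setting were used is not given in the sources used here. The mRNA was enriched by poly(A) capture or by rRNA removal, per the labels' protocols, which assign no library to either. Symbols for 14063 of 14129 gene identifiers in the cerebellar table came from a RefSeq table; no coordinates are given, since no rn6 annotation was used.

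In R 4.3.3, edgeR 4.0.16 (TMM scaling, filterByExpr, robust quasi-likelihood test, two-sided, Benjamini-Hochberg adjustment over all genes tested, threshold 0.05) was fitted to the 11 libraries. The filter left 11570 genes. CPM are counts scaled to the TMM-adjusted library size, with a prior count of 2 for log2 values, and the same scale was extended to the other 20 cerebellar libraries. A list mean is the mean of the log2 CPM of its tested members. The biological coefficient of variation was 0.16. DESeq2 1.42.0, limma 3.58.1 (voom with sample quality weights), other scalings, filters, covariates and the leaving out of each library were alternatives. The code was tested on simulated data.

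The rule names the 8 genes per direction with the smallest p (none passed the threshold), for each list the 2 members with the smallest p and the 2 with the highest level, markers as level checks, and 3 genes per direction for the region difference. One lower gene that the rule names is not reported here, and of the list members it names the text gives a selection. Other members of the choroid plexus list are named after their values were seen. Members, lists and tests were chosen with earlier results of these data known. High and sham animals share no number. Cerebellar and striatal libraries of the same number were taken as 1 animal, by the number in their titles. The main fit of the region difference had no term for the animal and took these paired libraries as independent. The fit with the animal as a block was an alternative. The deviations of paired libraries from the group means correlated above 0.1 in 3 of 11 animals.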

Additional observations from a re-analysis of the deposited data

Results flagged for a closer look

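In 10 of 92 groups of libraries tested (the list means other than that of ribosomal proteins, which chose the libraries, and 15 named genes, high and sham apart), 1 library lay far from the others of its group by Dixon's test at the 95% level, where chance alone flags about 1 in 20. All values are log2 CPM. Sham 1 accounted for 5 of them: the granule cell mean at 8.57 against 8.88 to 8.96 in the other sham libraries, mitochondrial ribosomal proteins at 5.50 against 4.80 to 5.06, NRF2 and antioxidant genes at 6.22 against 5.65 to 5.79, sterol synthesis at 5.99 against 5.69 to 5.80, and Zdhhc20 at 4.22 against 4.55 to 4.67. Sham 18 stood apart in the blood cell mean, at 2.57 against 0.50 to 1.22. Sham 32 stood apart in Col2a1, at 0.31 against 0.88 to 1.00. Among high libraries, high 13 stood apart in the endothelial mean, at 5.02 against 4.84 to 4.88. High 27 stood apart in Sat1, at 4.80 against 4.51 to 4.57, and high 58 in Tpd52l1, at 6.65 against 6.46 to 6.50.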

How the results depend on the processing

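The count of genes past the threshold was 0 under every alternative run, with between 11523 and 14041 genes tested and smallest adjusted p between 0.0996 and 1, the latter in the fit with the low and medium libraries. The region difference also gave 0 calls with the replicate block for the animal, with other size factors, with limma-voom and without each animal in turn. With all 8 high and 7 sham libraries, raised ribosomal protein transcripts included, the log2 fold change of 8 of the 15 named genes turned its sign: Prag1 had -0.05, Zdhhc20 -0.01, Rn7sl1 2.0, Sat1 0.49, Psmg4 1.57, Tff3 1.28, Tpd52l1 0.24 and Rab4a 0.55. The cause was not tested. Under the other alternatives no named gene turned its sign. With all those libraries 203 higher and 86 lower genes had an unadjusted p under 0.05, and 27 and 20 in the fit with the low and medium libraries. Of 672 list medians under alternatives, 32 moved by more than 1 SD between libraries. Without both sham 1 and high 13, an alternative chosen after seeing the data, the respiratory chain had 66 of 72 lower (median -0.12), oligodendrocytes 15 of 18 higher (0.07) and Ttr a log2 fold change of 2.03. With a median standard error of 0.13 on the log2 scale, small differences could not be resolved. The p-values set the group difference against the spread between libraries, 1 per animal. In that spread, differences between animals, punches and library preparations cannot be told apart.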
